A study of Mus musculus with 9 samples.

Results

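The G1 cyclins, kinases and inhibitors described here are 10 genes, Ccnd1, Ccnd2, Ccnd3, Ccne1, Ccne2, Cdk2, Cdk6, Cdkn1b, Cdkn2a and Cdkn2b, taken by name from the 33233 genes of each count table. All 10 were present in every library and passed the filter on low counts that left 16532 genes for testing. Polyadenylated RNA was sequenced from KH2 cells, a mouse embryonic stem cell line engineered to accept inducible transgenes, in 3 groups of 3 libraries. The groups were CBFA2T2 knockout, PRDM14 knockout and wild type, and all of them were grown with Lif on feeder cells that were taken away before RNA was extracted. CBFA2T2 belongs to the MTG co-repressors, and PRDM14 is a DNA-binding regulator found in pluripotent cells and the germline. The submitters describe the libraries of a group as biological replicates. The labels do not say whether a knockout was 1 clone or several, which exons were altered, or whether the replicates were separate cultures, so the p-values measure the spread between these libraries only.

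Passage from G1 into DNA replication is driven by cyclin-dependent kinases, which need a cyclin partner to be active. D-type cyclins bind CDK4 and CDK6 and start the phosphorylation of the retinoblastoma protein, E-type cyclins bind CDK2 and complete it, and E2F transcription factors are then released to switch on replication genes. Inhibitors of the INK4 class, among them the products of Cdkn2a and Cdkn2b, block CDK4 and CDK6, whereas p27, the product of Cdkn1b, mainly restrains cyclin-CDK2 complexes. Mouse embryonic stem cells are known for a short G1 phase, high cyclin E activity and low INK4 levels, and differentiation lengthens G1.

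The targeted genes were read first. Cbfa2t2 was at 99.2, 44.9 and 84.8 CPM (counts per 1000000, scaled as described under the processing) in the CBFA2T2 knockout, against 166, 159.6 and 177 CPM in wild type, and it fell there (log2 fold change -1.14 ± 0.25 SE, edgeR adjusted p = 0.00753). Prdm14 was at 41.4, 42.2 and 63.5 CPM in the libraries labelled PRDM14 knockout, against 18.4, 14.6 and 14.98 CPM in wild type. Prdm14 RNA was thus higher in the libraries labelled as its knockout (1.61 ± 0.17, adjusted p = 3.46e-05), and a count over the whole gene cannot show which exons were left. Prdm14 also rose in the CBFA2T2 knockout, at 59.6 ± 6.94 CPM against 16.0 ± 2.12 CPM in wild type (SD, n = 3 each; 1.89 ± 0.17, edgeR adjusted p = 6.83e-06), and the 2 knockouts were not called apart (0.28, adjusted p = 0.444). Every direction below for these libraries rests on their label. Total counts per library ran from 10309196 to 20129490, and libraries of 1 group differed by more than counting error (chi-square per degree of freedom 3.06 to 18.8). Across all genes tested, the median log2 fold change was 0.007 in the CBFA2T2 knockout and 0.02 in the libraries labelled PRDM14 knockout, both against wild type.

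In the CBFA2T2 knockout, 5 of the 10 genes fell against wild type (Ccnd1, Ccnd3, Ccne1, Cdk2 and Cdk6), 2 rose (Cdkn2a and Cdkn2b), and Ccnd2, Ccne2 and Cdkn1b were not called. A gene is called when its p from edgeR, adjusted over all genes tested, is under 0.05. Of all genes tested in this comparison, 38.5% were called, 19.6% as falls and 18.9% as rises. In the libraries labelled PRDM14 knockout, 4 of the 10 fell (Ccnd1, Ccnd3, Ccne1 and Cdk6), Cdkn2a and Cdkn2b rose, and 4 were not called, where 29.9% of all genes tested were called, 15.3% as falls and 14.6% as rises. For 8 of the 10 genes every CBFA2T2 knockout library lay to 1 side of every wild-type library, which held for 53.7% of all genes tested. The same was true of 8 of the 10 for the libraries labelled PRDM14 knockout, and of 45.1% of all genes. The median log2 fold change of the 10 genes was -0.27 in the CBFA2T2 knockout and -0.37 in the libraries labelled PRDM14 knockout. Both comparisons use the same 3 wild-type libraries, so their values are given side by side and were not combined.

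**Figure D1:**
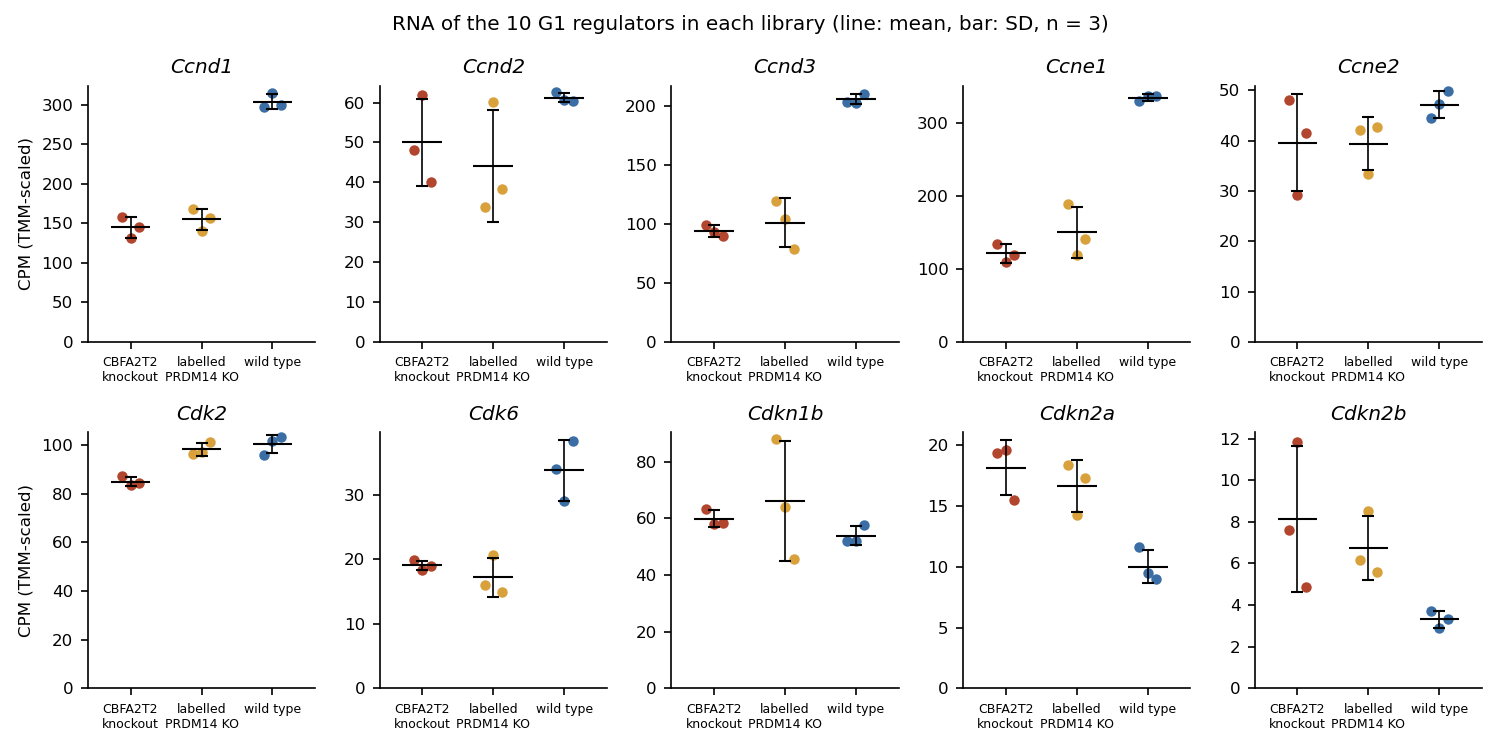
RNA level of the 10 genes in CPM, 1 panel a gene, with 1 point a library for the CBFA2T2 knockout, the libraries labelled PRDM14 knockout and wild type; horizontal lines are means and bars are SD (n = 3). Ccnd1, Ccnd3, Ccne1 and Cdk6 lie lower in all 6 knockout libraries than in all 3 wild-type libraries, and Cdkn2a and Cdkn2b lie higher.

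Ccnd1 and Ccnd3 RNA was at about 0.5 times the wild-type level in both knockouts, while Ccnd2 varied between libraries. Ccnd1 encodes cyclin D1, whose RNA is known to respond to growth-factor and WNT signalling. It stood at 157, 131 and 145 CPM in the CBFA2T2 knockout, at 167, 140.5 and 157 CPM in the libraries labelled PRDM14 knockout, and at 297, 314 and 299.7 CPM in wild type. No knockout library reached the lowest wild-type library. The log2 fold change was -1.07 ± 0.09 SE in the CBFA2T2 knockout (edgeR adjusted p = 1.36e-06) and -0.97 ± 0.09 in the libraries labelled PRDM14 knockout (adjusted p = 4.7e-06), which is 0.477 and 0.510 times wild type. Ccnd1 (ENSMUSG00000070348, chromosome 7, 144929931 to 144939869, minus strand, GRCm38) shares 1100 exonic bases, 23.4% of its exon length, with Oraov1 on the other strand. The strand setting of the counting is not given in the sources used here, so reads of the shared stretch could not be assigned. Oraov1 itself was at 10.04 CPM in the CBFA2T2 knockout, 9.49 CPM in the libraries labelled PRDM14 knockout and 8.55 CPM in wild type, and was not called.

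Ccnd3 encodes cyclin D3, a D-type cyclin best known from lymphocytes and muscle. Its RNA was at 99.4, 93.0 and 90.1 CPM in the CBFA2T2 knockout, 119.9, 105 and 78.7 CPM in the libraries labelled PRDM14 knockout and 204, 203 and 211 CPM in wild type. The libraries labelled PRDM14 knockout were the more spread, and again no knockout library overlapped wild type. Ccnd3 fell by 1.13 ± 0.12 on the log2 scale in the CBFA2T2 knockout (adjusted p = 1.61e-05) and by 1.02 ± 0.12 in the libraries labelled PRDM14 knockout (adjusted p = 5.27e-05). It lies on chromosome 17, 47505051 to 47599691, on the plus strand. Bysl, which shares 361 exonic bases with it on the other strand, fell as well (-0.80 in the CBFA2T2 knockout and -0.74 in the libraries labelled PRDM14 knockout).

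Ccnd2 encodes cyclin D2 and was not called in either knockout. Its level was 48.1, 61.8 and 40.2 CPM in the CBFA2T2 knockout, 33.7, 60.1 and 38.3 CPM in the libraries labelled PRDM14 knockout and 62.5, 60.8 and 60.4 CPM in wild type. Replicate 2 of each knockout stood at the wild-type level, and the other 4 knockout libraries stood below it. The log2 fold change was -0.29 in the CBFA2T2 knockout (95% interval -0.75 to 0.18, adjusted p = 0.312) and -0.48 in the libraries labelled PRDM14 knockout (-0.94 to -0.0057, adjusted p = 0.118). Without replicate 2 of the libraries labelled PRDM14 knockout, Ccnd2 was called there at -0.76 (adjusted p = 0.00311, with a range of 0.000507 to 0.306 over its 14 alternatives). With both knockout libraries numbered 2 left out, an alternative chosen after the data were seen, Ccnd2 was called in the CBFA2T2 knockout too, at -0.47 (adjusted p = 0.00741, range 0.00741 to 0.62 over its alternatives). Those 2 libraries also held the highest sums of feeder fibroblast markers, and each held the highest sum of trophectoderm markers in its group. These sums are given below with the other markers.

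The E-type cyclins differed from each other. Ccne1, cyclin E1, fell the most of the 10 genes in both comparisons, while Ccne2, cyclin E2, was not called. Ccne1 was at 135, 109 and 119.6 CPM in the CBFA2T2 knockout, 189, 119.7 and 142 CPM in the libraries labelled PRDM14 knockout and 330.5, 338 and 338 CPM in wild type. The 3 wild-type libraries lay close together and far above all 6 knockout libraries. The log2 fold change was -1.47 ± 0.14 in the CBFA2T2 knockout (adjusted p = 1.61e-05), which is 0.362 times wild type. In the libraries labelled PRDM14 knockout it was -1.16 ± 0.14 (adjusted p = 0.00012), which is 0.448 times wild type. Ccne1 (ENSMUSG00000002068, chromosome 7, 38097984 to 38107534, minus strand) shares no exonic base with another annotated gene.

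Ccne2 stood at 48.1, 29.1 and 41.5 CPM in the CBFA2T2 knockout, 42.2, 33.4 and 42.6 CPM in the libraries labelled PRDM14 knockout and 44.4, 47.3 and 49.8 CPM in wild type. Replicate 2 was the lowest of each knockout, and replicate 1 of the CBFA2T2 knockout lay within the wild-type libraries. The log2 fold change was -0.26 in each comparison (95% intervals -0.60 to 0.09 in both, adjusted p = 0.228 and 0.247), so a fall of up to about 0.60 or a small rise was within the error. Ccne2 shares 609 exonic bases, 17.4% of its exon length, with Ints8 on the other strand, and Ints8 was not called.

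**Figure D2:**
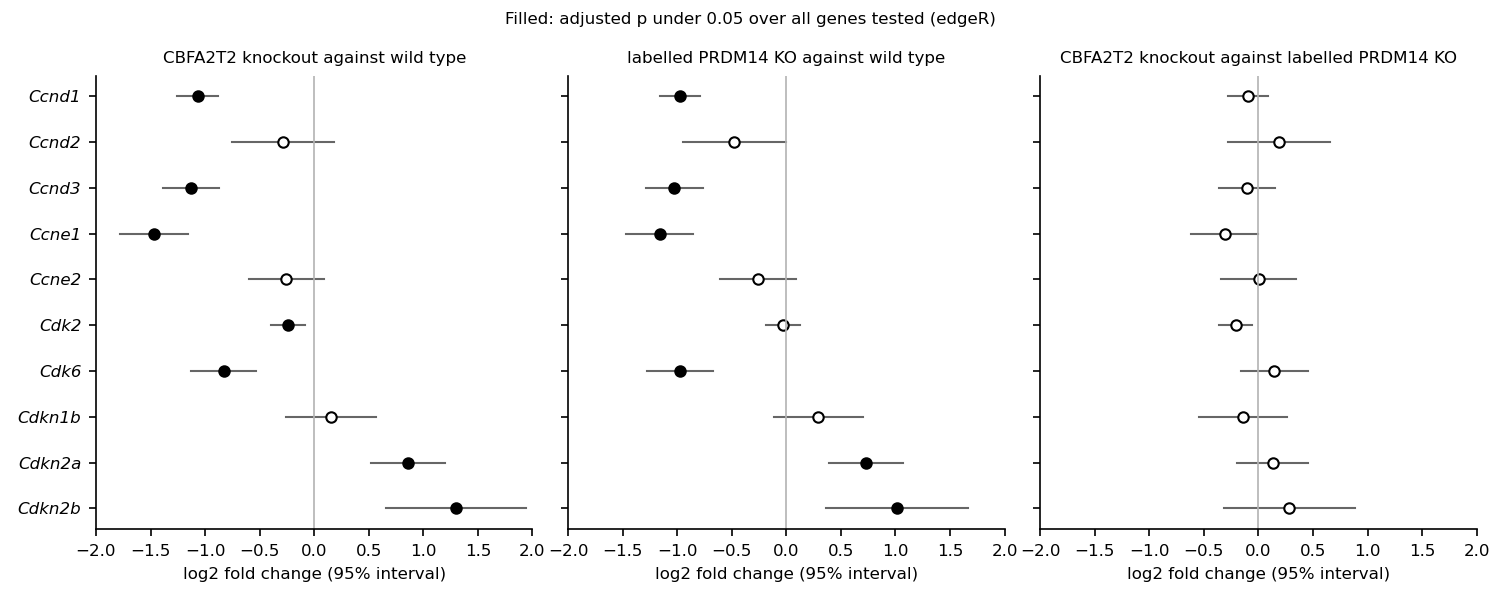
Log2 fold change of the 10 genes with its 95% interval, for the CBFA2T2 knockout against wild type, the libraries labelled PRDM14 knockout against wild type, and the CBFA2T2 knockout against the libraries labelled PRDM14 knockout; filled points have an adjusted p under 0.05. Ccnd1, Ccnd3, Ccne1 and Cdk6 lie below 0 and Cdkn2a and Cdkn2b above 0 in the 2 panels against wild type, and no point is filled in the third.

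Of the kinases, Cdk6 fell in both comparisons and Cdk2 was called in 1 of them. Cdk6, a partner of the D-type cyclins, was at 19.8, 18.4 and 18.9 CPM in the CBFA2T2 knockout, 16.0, 20.7 and 14.9 CPM in the libraries labelled PRDM14 knockout and 34.0, 29.0 and 38.3 CPM in wild type. The groups did not overlap. Its log2 fold change was -0.83 ± 0.14 in the CBFA2T2 knockout (adjusted p = 0.000434) and -0.98 ± 0.14 in the libraries labelled PRDM14 knockout (adjusted p = 0.000197). Cdk4, which acts with the same cyclins, was not called (-0.13 in the CBFA2T2 knockout, adjusted p = 0.232, and -0.07 in the libraries labelled PRDM14 knockout, adjusted p = 0.547). Cdk6 lies on chromosome 5, 3341485 to 3531008, on the plus strand.

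Cdk2, the kinase bound by E-type cyclins, was at 87.0, 83.4 and 84.3 CPM in the CBFA2T2 knockout, 96.2, 97.1 and 101 CPM in the libraries labelled PRDM14 knockout and 96.0, 102 and 103 CPM in wild type. It fell by 0.24 ± 0.07 on the log2 scale in the CBFA2T2 knockout (adjusted p = 0.0169), which is 0.847 times wild type. This call was lost without CBFA2T2 knockout replicate 2 (-0.22, adjusted p = 0.0731), without wild-type replicate 2 (-0.22, adjusted p = 0.0666), without wild-type replicate 3 (-0.21, adjusted p = 0.0824) and with both knockout libraries numbered 2 left out (-0.22, adjusted p = 0.0524), over a range of 0.0111 to 0.0824. In the libraries labelled PRDM14 knockout Cdk2 was not called (-0.03, 95% interval -0.18 to 0.12, adjusted p = 0.785).

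The inhibitors of the INK4 locus rose, at low CPM, and Cdkn1b was not called. Per kilobase of exon, given below, Cdkn2a stood above Ccnd2 and Cdk6 in every group. Cdkn2a, which encodes both p16INK4a, an inhibitor of CDK4 and CDK6, and p19ARF, a regulator of p53, was at 19.4, 19.6 and 15.5 CPM in the CBFA2T2 knockout, 18.4, 14.3 and 17.3 CPM in the libraries labelled PRDM14 knockout and 11.6, 9.49 and 8.98 CPM in wild type. All 6 knockout libraries were above all 3 wild-type libraries, the nearest pair being 14.3 against 11.6 CPM. The log2 fold change was 0.86 ± 0.16 in the CBFA2T2 knockout (adjusted p = 0.000834) and 0.73 ± 0.16 in the libraries labelled PRDM14 knockout (adjusted p = 0.00361). Gene counts do not separate the p16INK4a from the p19ARF transcript. Cdkn2a lies on chromosome 4, 89274471 to 89294653, on the minus strand, beside Cdkn2b at 89306289 to 89311032 on the same strand.

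Cdkn2b encodes p15INK4b and had the fewest reads of the 10 genes. It had 135, 247 and 63 counts in the CBFA2T2 knockout, 106, 140 and 89 counts in the libraries labelled PRDM14 knockout and 65, 29 and 48 counts in wild type. On the scaled level this was 7.63, 11.8 and 4.89 CPM in the CBFA2T2 knockout, 6.18, 8.50 and 5.57 CPM in the libraries labelled PRDM14 knockout, and 3.71, 2.90 and 3.31 CPM in wild type. Every knockout library exceeded every wild-type library, and replicate 2 was the highest in each knockout. Cdkn2b rose by 1.30 ± 0.30 on the log2 scale in the CBFA2T2 knockout (adjusted p = 0.00393) and by 1.02 ± 0.30 in the libraries labelled PRDM14 knockout (adjusted p = 0.0211). The second call was lost without replicate 2 of the libraries labelled PRDM14 knockout (0.82, adjusted p = 0.0846), without wild-type replicate 2 (0.94, adjusted p = 0.0794), without wild-type replicate 3 (1.02, adjusted p = 0.0686) and with limma-voom (0.98, adjusted p = 0.0568), over a range of 0.0074 to 0.0846. With both knockout libraries numbered 2 left out it was called at 0.92 in the CBFA2T2 knockout (adjusted p = 0.0211) and at 0.82 in the libraries labelled PRDM14 knockout (adjusted p = 0.0436).

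Cdkn1b encodes p27. It was at 63.3, 58.0 and 58.5 CPM in the CBFA2T2 knockout, 88.2, 64.2 and 45.8 CPM in the libraries labelled PRDM14 knockout and 52.0, 52.1 and 57.7 CPM in wild type. The libraries labelled PRDM14 knockout spread from below to above wild type. The log2 fold change was 0.15 (95% interval -0.26 to 0.56, adjusted p = 0.553) in the CBFA2T2 knockout and 0.29 (-0.12 to 0.70, adjusted p = 0.263) in the libraries labelled PRDM14 knockout. Without replicate 3 of the libraries labelled PRDM14 knockout Cdkn1b was called there, at 0.51 (adjusted p = 0.00801, range 0.00801 to 0.887 over its alternatives).

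Promoter sequence from RefSeq is shown for Ccne1, Ccnd3, Cdkn2a and Cdkn2b, which were called in both comparisons and had a motif match in a window. Windows of 250 bases before a start site (GRCm38.p6) were matched for 7 of the 10 genes, 9 windows in all. Ccnd1, Ccnd2 and Ccne2 windows were not used here. The first Ccnd3 window and the bases of the Cdk6 window outside exons held no match and are not printed, while the proximal Cdkn2a window is printed beside the distal one to set the 2 starts side by side. The bases printed are those of the window that lie outside annotated exons, 5′ to 3′ on the gene's strand, with motif matches in capitals. Positions count back from the start site. The windows are Ccne1 at chr7:38107535-38107740, the internal start of Ccnd3 at chr17:47593217-47593435, the distal start of Cdkn2a, which gives p19ARF, at chr4:89294654-89294869, the proximal start, which gives p16INK4a, at chr4:89282193-89282442, and Cdkn2b at chr4:89311040-89311282.
Ccne1: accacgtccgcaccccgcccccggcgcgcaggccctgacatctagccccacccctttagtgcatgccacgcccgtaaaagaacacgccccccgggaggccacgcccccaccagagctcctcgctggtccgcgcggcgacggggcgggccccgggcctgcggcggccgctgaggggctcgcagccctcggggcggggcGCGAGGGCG
Ccnd3: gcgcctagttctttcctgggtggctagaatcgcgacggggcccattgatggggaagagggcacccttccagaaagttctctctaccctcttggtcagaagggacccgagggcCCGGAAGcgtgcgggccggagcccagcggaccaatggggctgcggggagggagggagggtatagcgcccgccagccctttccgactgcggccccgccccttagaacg
Cdkn2a distal: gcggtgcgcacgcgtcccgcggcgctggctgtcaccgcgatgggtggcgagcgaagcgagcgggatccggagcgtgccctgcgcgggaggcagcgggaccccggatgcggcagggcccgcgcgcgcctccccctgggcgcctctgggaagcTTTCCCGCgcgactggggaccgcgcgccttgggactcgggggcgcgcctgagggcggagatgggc
Cdkn2a proximal: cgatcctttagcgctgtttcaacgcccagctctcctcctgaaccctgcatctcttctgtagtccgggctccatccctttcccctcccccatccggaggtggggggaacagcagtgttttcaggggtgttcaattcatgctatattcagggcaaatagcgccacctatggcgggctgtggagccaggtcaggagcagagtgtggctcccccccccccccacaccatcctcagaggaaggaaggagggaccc
Cdkn2b: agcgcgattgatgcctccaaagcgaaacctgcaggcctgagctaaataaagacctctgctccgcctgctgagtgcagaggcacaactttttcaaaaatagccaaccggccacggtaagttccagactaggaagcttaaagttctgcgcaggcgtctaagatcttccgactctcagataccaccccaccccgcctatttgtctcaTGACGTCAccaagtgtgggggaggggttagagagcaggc

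Motifs were searched on both strands. For E2F the letters were TTTCCCGC, TTTCGCGC, TTTGCCGC and TTTGGCGC. For TCF/LEF they were CTTTG followed by AA, AT, TT or TA. The CRE was read as TGACGTCA and the EGR motif as GCGNGGGCG. The ETS motif was read as CCGGAAG. The AP-1 motif was TGANTCA, read apart from the E-box, which was CACGTG. No match overlapped another. The distal Cdkn2a window held the E2F letters at -99 to -92, and 1.86% of 32851 promoter windows of the same length held one of the 4 E2F forms. Cdkn2b held the CRE at -46 to -39 (1.55% of windows), Ccne1 the EGR letters at -53 to -45 (4.7%) and the internal Ccnd3 start the ETS letters at -138 to -132 (6.91%). In bases not printed, the Cdk2 window held an E2F form on the opposite strand and the Cdk6 window an E-box (6.02% of windows). No TCF/LEF letters, present in 14.8% of windows, and no AP-1 letters, present in 6.75%, were found in the 9 windows. The proximal Cdkn2a window held none of the letters searched. A match describes the letters only, and binding was not measured.

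Levels of different genes were compared per kilobase of exon, using GENCODE M21 exon lengths. The files gave the same gene start and end as that annotation for 6 of the 10 genes, and for Ccnd1, Ccnd2, Cdk2 and Cdkn2b the length behind the level is less certain. In every group Ccne1 was the highest of the 10 genes and Ccnd1 the next. Ccne1 stood at 45.6 ± 4.86 CPM per kilobase in the CBFA2T2 knockout, 56.4 ± 13.3 in the libraries labelled PRDM14 knockout and 126 ± 1.59 in wild type (SD, n = 3 each). Ccnd1 stood at 30.7 ± 2.76 CPM per kilobase in the CBFA2T2 knockout, 32.9 ± 2.88 in the libraries labelled PRDM14 knockout and 64.5 ± 2.0 in wild type. Cdk4, which is not among the 10 genes, was at 112 ± 5.50 CPM per kilobase in the CBFA2T2 knockout, 117 ± 11.5 in the libraries labelled PRDM14 knockout and 122 ± 4.43 in wild type, so its level was above that of every D-type cyclin in each group.

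Below these the order differed between groups. In the CBFA2T2 knockout the third place was held by Cdkn2a at 15.5 ± 1.96 CPM per kilobase, and it overlapped with Cdk2 (13.7 ± 0.30). In order came Cdkn1b, Ccne2 and Ccnd3, each overlapping with its neighbour, then Cdkn2b (5.84 ± 2.52) and Ccnd2 (5.32 ± 1.16), which overlapped, and Cdk6 was the lowest at 1.36 ± 0.05. The libraries labelled PRDM14 knockout ran Cdk2, Cdkn1b, Cdkn2a, Ccnd3 and Ccne2 from 15.8 ± 0.43 down to 11.3 ± 1.49 CPM per kilobase, neighbours overlapping throughout, then Cdkn2b (4.86 ± 1.12) and Ccnd2 (4.68 ± 1.49), and Cdk6 at 1.23 ± 0.22. Wild type ran Ccnd3 (23.5 ± 0.48), Cdk2 (16.1 ± 0.61), Ccne2 (13.5 ± 0.77), Cdkn1b (11.8 ± 0.71), Cdkn2a (8.55 ± 1.18) and Ccnd2 (6.51 ± 0.12), each apart from the next. Cdk6 (2.41 ± 0.33) and Cdkn2b (2.38 ± 0.29) were the lowest in wild type and overlapped.

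The summed level of the 3 D-type cyclins was 46.8 ± 2.67 CPM per kilobase in the CBFA2T2 knockout, 49.1 ± 3.33 in the libraries labelled PRDM14 knockout and 94.4 ± 1.74 in wild type. Within this sum the share of Ccnd1 was 65.6 ± 3.27% in the CBFA2T2 knockout, 67.0 ± 4.95% in the libraries labelled PRDM14 knockout and 68.3 ± 0.90% in wild type, and it overlapped between all groups (two-sided exact permutation p against wild type of 0.3 for the CBFA2T2 knockout and 0.7 for the libraries labelled PRDM14 knockout). The summed level of the 2 E-type cyclins was 56.9 ± 7.55 CPM per kilobase in the CBFA2T2 knockout, 67.7 ± 14.4 in the libraries labelled PRDM14 knockout and 139 ± 2.28 in wild type. Here the share of Ccne1 was 80.3 ± 2.47% in the CBFA2T2 knockout, 83.1 ± 2.13% in the libraries labelled PRDM14 knockout and 90.3 ± 0.41% in wild type, and no knockout library reached wild type. The difference was -10.04 percentage points in the CBFA2T2 knockout and -7.24 points in the libraries labelled PRDM14 knockout, with an exact permutation p of 0.1 each, the smallest that 3 against 3 libraries allow.

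**Figure D3:**
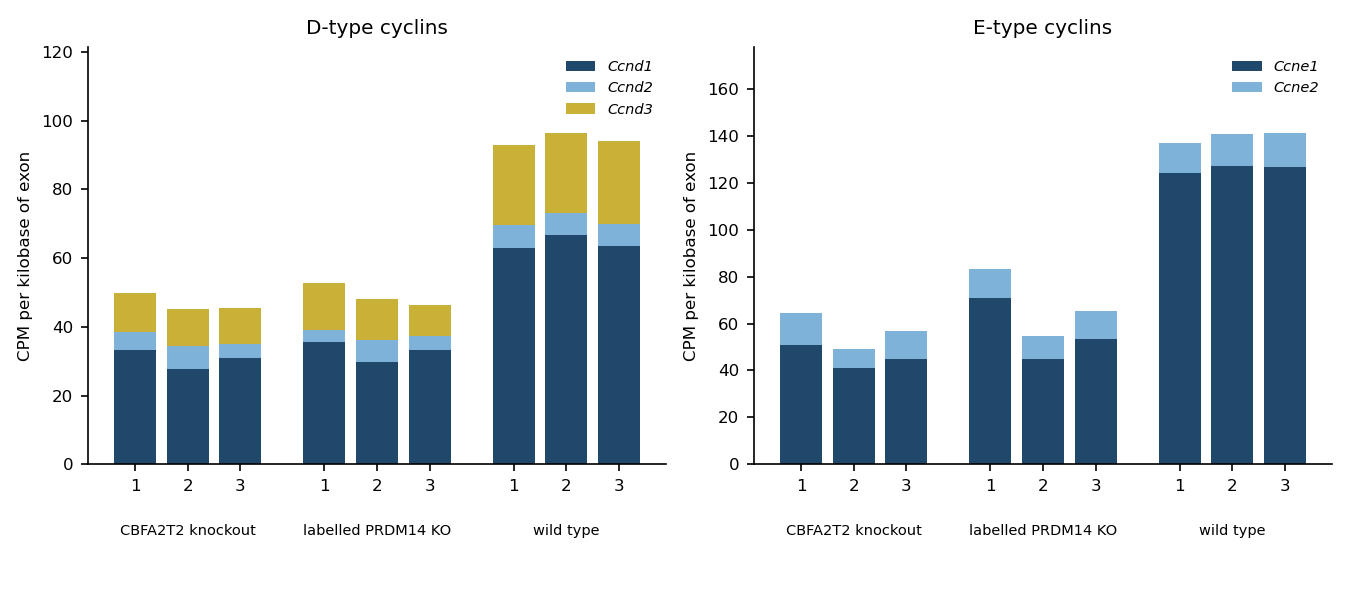
Summed RNA level of the D-type cyclins (left) and E-type cyclins (right) in CPM per kilobase of exon, 1 bar a library numbered by replicate, stacked by gene. The D-type sums average 46.8 in the CBFA2T2 knockout, 49.1 in the libraries labelled PRDM14 knockout and 94.4 in wild type, and the Ccne2 part of the E-type sum is 19.7% in the CBFA2T2 knockout, 16.9% in the libraries labelled PRDM14 knockout and 9.67% in wild type.

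Set against each other, the CBFA2T2 knockout and the libraries labelled PRDM14 knockout showed no called difference in any of the 10 genes, and 0.853% of all genes tested were called, 0.339% as rises and 0.514% as falls in the CBFA2T2 knockout. At an unadjusted p under 0.05 there were 2 genes of the 10, and 0 were called by DESeq2, by limma-voom or under the other alternatives. Among all 16532 genes tested, 1136 were higher and 1359 lower in the CBFA2T2 knockout at that unadjusted threshold. Cdk2 was lower by 0.21 ± 0.07 on the log2 scale in the CBFA2T2 knockout (95% interval -0.36 to -0.06, adjusted p = 0.169), and it was the only one of the 10 whose libraries did not overlap, which held for 17.8% of all genes tested. Ccne1 differed by -0.31 ± 0.14 (interval -0.61 to -0.0031, adjusted p = 0.325). The intervals were -0.28 to 0.08 for Ccnd1, -0.36 to 0.15 for Ccnd3 and -0.16 to 0.45 for Cdk6. They were -0.20 to 0.46 for Cdkn2a and -0.32 to 0.88 for Cdkn2b, so differences of these sizes remained possible. The targeted gene Cbfa2t2 was not called in this comparison either (-1.06 ± 0.25, edgeR adjusted p = 0.0975), though its libraries did not overlap. A missing call between the knockouts thus does not show that a gene was alike in both.

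The other genes of the G1/S network were read from a list of 32, of which 31 were tested and Cdkn2d was not analysed here. In the CBFA2T2 knockout 11 of the 31 fell, 4 rose and 16 were not called, against 19.6% falls and 18.9% rises among all genes tested. The libraries labelled PRDM14 knockout also had 11 falls, 4 rises and 16 not called, against 15.3% falls and 14.6% rises among all genes tested. The median log2 fold change of the list was -0.20 in the CBFA2T2 knockout and -0.13 in the libraries labelled PRDM14 knockout. Leaving out CBFA2T2 knockout replicate 2 left 7 falls there, and leaving out any library but replicate 1 of those labelled PRDM14 knockout left 7 falls and 2 rises in that comparison. Calls among all genes changed too. Without 1 library they numbered 4800 to 5811 in the CBFA2T2 knockout, against 6367 with all libraries. In the libraries labelled PRDM14 knockout they numbered 3386 to 4970, against 4941. List counts without a library, here and below, were not set against the share of all genes called in that fit.

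The lowest adjusted p among the falls belonged to E2F factors and their partners. E2f4, a repressor E2F, was at 198, 192 and 213 CPM in the CBFA2T2 knockout, 225, 217 and 215 CPM in the libraries labelled PRDM14 knockout and 349, 369.9 and 372 CPM in wild type. It fell by 0.86 ± 0.07 in the CBFA2T2 knockout (log2, adjusted p = 1.36e-06) and by 0.73 ± 0.07 in the libraries labelled PRDM14 knockout (adjusted p = 6.57e-06). E2f8, an atypical E2F that represses replication genes, fell by 1.29 ± 0.11 in the CBFA2T2 knockout and by 1.18 ± 0.11 in the libraries labelled PRDM14 knockout. Tfdp2, a dimer partner of E2F factors, fell by 1.19 ± 0.10 in the CBFA2T2 knockout and by 1.09 ± 0.10 in the libraries labelled PRDM14 knockout. Ambra1, an adaptor for the turnover of D-type cyclins, fell by 0.49 ± 0.08 in the CBFA2T2 knockout and by 0.50 ± 0.08 in the libraries labelled PRDM14 knockout. E2f1, an activator E2F, was not called (-0.35 in the CBFA2T2 knockout, adjusted p = 0.258, and 0.14 in the libraries labelled PRDM14 knockout, adjusted p = 0.674). Rb1, the gene of the retinoblastoma protein, was at 20.9 ± 1.00 CPM in the CBFA2T2 knockout, 20.6 ± 1.97 CPM in the libraries labelled PRDM14 knockout and 20.9 ± 2.13 CPM in wild type and was not called (adjusted p = 0.978 and 0.940).

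Among the rises were further CDK inhibitors. Cdkn1a, the gene of p21, a p53 target that inhibits cyclin-CDK2, stood at 208, 264 and 191 CPM in the CBFA2T2 knockout, 191, 257 and 192 CPM in the libraries labelled PRDM14 knockout and 95.4, 76.3 and 70.9 CPM in wild type. All knockout libraries were above all wild-type libraries. It rose by 1.45 ± 0.16 in the CBFA2T2 knockout (log2, adjusted p = 7.62e-05) and by 1.40 ± 0.16 in the libraries labelled PRDM14 knockout (adjusted p = 0.000146). Cdkn2c, the gene of the INK4 protein p18, rose by 1.26 ± 0.29 in the CBFA2T2 knockout and by 1.10 ± 0.29 in the libraries labelled PRDM14 knockout. Its counts were low, at 67, 96 and 54 counts in the CBFA2T2 knockout, 63, 64 and 59 counts in the libraries labelled PRDM14 knockout and 41, 10 and 25 counts in wild type.

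Cul4a, a ubiquitin-ligase scaffold, rose by 0.32 ± 0.07 in the CBFA2T2 knockout and by 0.21 ± 0.07 in the libraries labelled PRDM14 knockout. The second call was lost without replicate 2 or 3 of the libraries labelled PRDM14 knockout (adjusted p = 0.066 and 0.106), without any 1 wild-type library (adjusted p of 0.0686 to 0.168) and with both knockout libraries numbered 2 left out (adjusted p = 0.0745). Cdkn3, a phosphatase of CDKs, rose in the CBFA2T2 knockout (0.67 ± 0.21, adjusted p = 0.0217), a call lost without its replicate 1 (0.42, adjusted p = 0.122) or wild-type replicate 2 (0.61, adjusted p = 0.0781). Rbl1, the gene of the pocket protein p107, was called in the libraries labelled PRDM14 knockout (0.25 ± 0.09, adjusted p = 0.0491), and this call was lost whichever library was left out (adjusted p of 0.0565 to 0.127). Cdkn1c, the gene of p57, was not called, at 8.98, 10.9 and 37.3 CPM in the CBFA2T2 knockout, 14.98, 8.02 and 10.3 CPM in the libraries labelled PRDM14 knockout and 29.6, 36.3 and 35.6 CPM in wild type. Its log2 fold change was -0.85 in the CBFA2T2 knockout (95% interval -2.13 to 0.43, adjusted p = 0.258) and -1.60 in the libraries labelled PRDM14 knockout (-2.92 to -0.28, adjusted p = 0.0711), where its libraries did not overlap wild type. CBFA2T2 knockout replicate 3 stood at the wild-type level, and without it Cdkn1c was called there (-1.76, adjusted p = 0.000188).

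**Figure D4:**
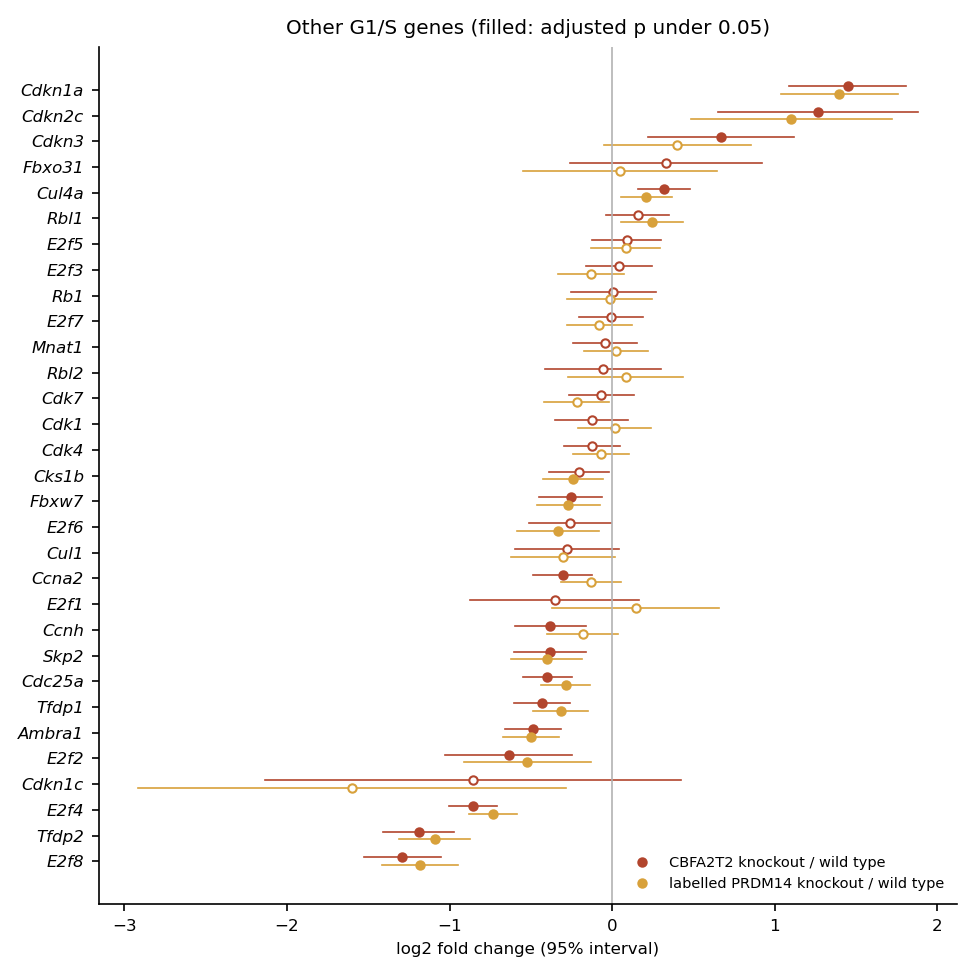
Log2 fold change against wild type with its 95% interval for the 31 other G1/S genes tested, in the CBFA2T2 knockout (upper point of each pair) and in the libraries labelled PRDM14 knockout (lower point); filled points have an adjusted p under 0.05. The inhibitors Cdkn1a and Cdkn2c lie highest. E2f8 and Tfdp2 are the lowest points for the CBFA2T2 knockout, and Cdkn1c, at -1.60 with a wide interval and not called, is the lowest for the libraries labelled PRDM14 knockout.

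Replication genes that E2F factors are known to switch on were read from a list of 19, which also held the proliferation marker Mki67. In the CBFA2T2 knockout 8 of the 19 fell and 0 rose, where 19.6% of all genes tested fell and 18.9% rose. In the libraries labelled PRDM14 knockout 4 of the 19 fell (Mcm5, Mcm6, Mcm7 and Gins1) and 0 rose, where 15.3% of all genes fell and 14.6% rose. At an unadjusted p under 0.05 the numbers were 14 falls and 7 falls, with 0 rises in either. Among all 16532 genes tested, 3976 fell and 3885 rose at that threshold in the CBFA2T2 knockout. In the libraries labelled PRDM14 knockout 3365 of all genes fell and 3391 rose. The count of 4 dropped to 1 without replicate 2 of the libraries labelled PRDM14 knockout, without wild-type replicate 2 or without wild-type replicate 3. It dropped to 2 without wild-type replicate 1, and it was 5 without replicate 1 of the libraries labelled PRDM14 knockout. The count of 8 in the CBFA2T2 knockout ran from 6 to 10 without 1 library. These changes were not separated from the change in calls among all genes. Mcm5, a subunit of the replicative helicase, was at 541 ± 20.2 CPM in the CBFA2T2 knockout, 567 ± 62.7 CPM in the libraries labelled PRDM14 knockout and 775 ± 15.2 CPM in wild type, a fall on the log2 scale of 0.52 ± 0.08 in the CBFA2T2 knockout and of 0.45 ± 0.08 in the libraries labelled PRDM14 knockout. Mcm6 and Mcm7, subunits of the same helicase, were the other genes with the lowest adjusted p, Mcm6 at -0.39 in the CBFA2T2 knockout and -0.23 in the libraries labelled PRDM14 knockout, and Mcm7 at -0.38 in the CBFA2T2 knockout and -0.27 in the libraries labelled PRDM14 knockout. The falls of these genes were smaller than those of Ccnd1, Ccnd3 and Ccne1.

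A list of 17 transcription and chromatin factors with known links to these genes gave 7 rises and 6 falls in the CBFA2T2 knockout (all genes tested: 18.9% and 19.6%), and 6 rises and 4 falls in the libraries labelled PRDM14 knockout (all genes tested: 14.6% and 15.3%). The second count of rises was 3 without wild-type replicate 2 and 4 on leaving out wild-type replicate 1 or any 1 of the libraries labelled PRDM14 knockout. In the first comparison the falls numbered 4 without CBFA2T2 knockout replicate 1 or 3 or wild-type replicate 1 or 3. Lef1, a WNT effector that acts on Ccnd1, was at 7.32 ± 0.37 CPM in the CBFA2T2 knockout, 7.88 ± 1.14 CPM in the libraries labelled PRDM14 knockout and 89.2 ± 12.2 CPM in wild type (log2 fold change -3.61 ± 0.14 in the CBFA2T2 knockout and -3.50 ± 0.14 in the libraries labelled PRDM14 knockout). Egr1, an immediate early factor of ERK signalling, was at 523 ± 84.8 CPM in the CBFA2T2 knockout, 511 ± 13.1 CPM in the libraries labelled PRDM14 knockout and 116 ± 23.2 CPM in wild type (2.17 ± 0.15 in the CBFA2T2 knockout and 2.13 ± 0.15 in the libraries labelled PRDM14 knockout). Trp53, the gene of p53, fell by 0.71 ± 0.08 in the CBFA2T2 knockout and by 0.64 ± 0.08 in the libraries labelled PRDM14 knockout. The falls in the libraries labelled PRDM14 knockout were Lef1, Trp53, Myc (-1.73) and Mycn (-0.98), the last 2 named after their values were seen. Myc and Mycn, growth regulators that act on G1 genes, also fell in the CBFA2T2 knockout (Myc -1.59, Mycn -1.25). On the same list, Jun was at 174 to 271 CPM in the CBFA2T2 knockout and 116 to 168 CPM in the libraries labelled PRDM14 knockout. In wild type Jun was at 44.9 to 69.2 CPM. Id3 was also higher in every knockout library than in every wild-type library. Jun and Id3 were likewise named after their values were seen.

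Markers of other cell types differed between the groups. In bulk RNA, fewer cells of a type and less RNA per cell cannot be told apart. Of 20 feeder fibroblast markers, 18 were tested. In the CBFA2T2 knockout 6 of the 18 rose and 0 fell, beside the 18.9% of all genes that rose. In the libraries labelled PRDM14 knockout 4 of the 18 rose (Col1a1, Pdgfrb, Acta2 and Tagln) and 0 fell, beside the 14.6% of all genes that rose. The first count ran from 3 without CBFA2T2 knockout replicate 2 or any 1 wild-type library to 9 without CBFA2T2 knockout replicate 3. The second was 0 without wild-type replicate 2, 1 without wild-type replicate 3 and 7 without replicate 1 of the libraries labelled PRDM14 knockout.

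Their summed level was 1103, 1827 and 808 CPM in the CBFA2T2 knockout, 702, 1581 and 905 CPM in the libraries labelled PRDM14 knockout and 464, 379 and 369 CPM in wild type. The 10 defining ones among them summed to 390 to 861 CPM in the CBFA2T2 knockout, 376 to 857 CPM in the libraries labelled PRDM14 knockout and 198 to 245 CPM in wild type. Col1a1 was the highest of them in every library, Dcn was at 0.93 to 2.31 CPM in all libraries, and Lum was at 0 in CBFA2T2 knockout replicate 1 and wild-type replicate 3 and at most 0.30 CPM elsewhere. Replicate 2 was the highest in each knockout for these sums, as it was for Ccnd2 and Cdkn2b. Within the list, Col1a1, Col1a2, Col5a1, Fbn1, Acta2 and Tagln were higher in every knockout library than in wild type. Acta2 was at 105 to 298 CPM in the knockout libraries and 29.8 to 47.0 CPM in wild type. Tagln was at 64.2 to 333 CPM and 15.7 to 24.3 CPM. Outside the knockout libraries numbered 2, Col3a1, Mmp2, Prrx1 and Loxl1 overlapped wild type. The sums thus do not show how many fibroblasts were present. Any part of feeder cells or of other cell types in the results on Ccnd2 and Cdkn2b was not tested. Without both knockout libraries numbered 2, Cdkn2a stood at 0.80 in the CBFA2T2 knockout and 0.83 in the libraries labelled PRDM14 knockout, against 0.86 and 0.73 with all libraries.

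Embryonic stem cell markers (8 genes) summed to 2530 to 3113 CPM in the CBFA2T2 knockout, 3299 to 4074 CPM in the libraries labelled PRDM14 knockout and 4500 to 4551 CPM in wild type. Of these 8, 6 fell and 1 rose in the CBFA2T2 knockout (median log2 fold change -0.89), and 5 fell and 1 rose in the libraries labelled PRDM14 knockout (median -0.52), the same shares of all genes applying as for the lists above. Their sum was thus lower in all 6 knockout libraries, though the markers were found in each. The list was split in direction. Nanog was higher in every knockout library, at 389 to 598 CPM against 292 to 331 CPM in wild type. Dppa5a ran from 546 to 1162 CPM in the knockout libraries and from 560 to 739 CPM in wild type. Trophectoderm markers (8 genes) summed to 476 to 1328 CPM in the CBFA2T2 knockout and 124 to 379 CPM in the libraries labelled PRDM14 knockout. In wild type they summed to 50.5 to 68.3 CPM. Of the 7 tested, 5 rose and 1 fell in the CBFA2T2 knockout, where 18.9% of all genes rose and 19.6% fell. In the libraries labelled PRDM14 knockout 3 of the 7 rose and 0 fell, where 14.6% of all genes rose and 15.3% fell. Krt8 and Krt18 were the highest of the 8 in every library. In the CBFA2T2 knockout Krt8 was at 269 to 813 CPM and Krt18 at 171 to 469 CPM. In wild type they were at 19.0 to 27.4 and 20.3 to 27.5 CPM. Cdx2, Gata3 and Krt7 were also higher in the CBFA2T2 knockout than in wild type, at up to 3.79, 5.37 and 32.2 CPM. Eomes was lower there, at 4.69 to 6.44 CPM against 8.09 to 8.85 CPM in wild type. Elf5, one of the 8, was at 0 in 6 libraries. Primitive endoderm markers (8 genes) summed to 46.0 to 81.9 CPM in the CBFA2T2 knockout and 47.5 to 131 CPM in the libraries labelled PRDM14 knockout. In wild type they summed to 62.8 to 69.5 CPM. Of the 7 tested, 2 rose and 1 fell in the CBFA2T2 knockout. In the libraries labelled PRDM14 knockout 1 rose and 1 fell, and the shares of all genes just given apply to both counts. Afp was at 0 in all 9 libraries. The part of these marker changes, the stem cell markers included, in the falls of the cyclins was not tested.

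**Figure D5:**
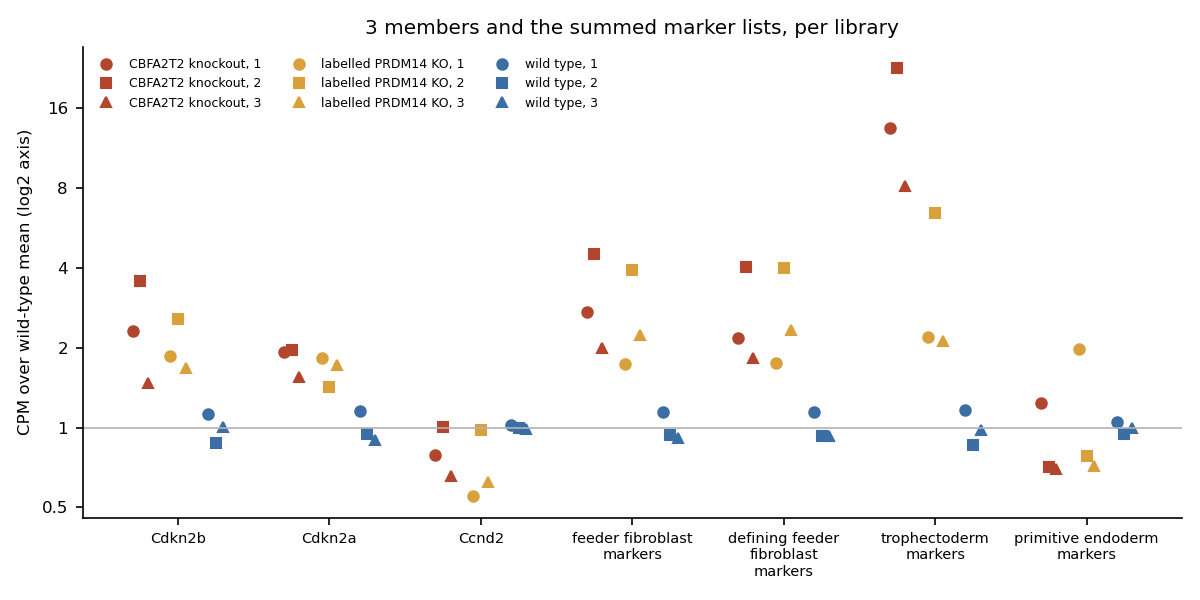
Level of Cdkn2b, Cdkn2a and Ccnd2 and summed levels of 4 marker lists in each library, divided by the wild-type mean, on a log2 axis; colours are groups and shapes are replicate numbers. Replicate 2 of each knockout (squares) lies highest of its group for Cdkn2b, Ccnd2, both feeder fibroblast sums and the trophectoderm sum, but not for Cdkn2a in the libraries labelled PRDM14 knockout.

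The genes whose level followed each doubly called gene most closely were found by the root mean square difference of centred log2 CPM over the 9 libraries. This is a description over libraries that fall into 3 groups, so the likeness includes the difference between knockouts and wild type. For Ccnd1 they were Elac2, E130309D14Rik and Rbmxl2, at differences of 0.06 to 0.07, where Ccnd1 itself varied by 0.49 on that scale. For Ccnd3 (0.53) they were Kdm2b, Tfpi and Wdr47 at 0.07 to 0.10, and for Ccne1 (0.66) L1td1, Tet2 and Slc7a1 at 0.12. The genes nearest to Cdk6 (0.45) were Trim71, Med14 and Qser1 at 0.08 to 0.13. Cdkn2a (0.41) was nearest to Akap5, Cln3 and Gm4989 at 0.08 to 0.10, and Cdkn2b (0.62) to Btg2, Tgm2 and Sowahb at 0.10 to 0.13.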

How the data were processed

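Raw counts per Ensembl gene were deposited by the authors, 1 library a file, with no normalization. Libraries were made from polyadenylated RNA by the strand-marking dUTP method, per the labels' protocols. Bowtie and mm9 are named in the submitters' processing notes, without a version. The files hold GRCm38 coordinates, with 25661 of 32860 matched IDs at the same start and end as in GENCODE M21. Neither the counting tool nor a strand setting is given in the labels or notes used. No deposited column went unmapped.

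The model was fitted in edgeR 4.0.16 (R 4.3.3): filterByExpr, TMM scaling (factors 0.962 to 1.037), and a robust quasi-likelihood fit of the 3 groups over 9 libraries, with two-sided tests and Benjamini-Hochberg adjustment over 16532 genes. A gene was called at an adjusted p under 0.05. SE is the log2 fold change over the root of F. CPM use kept-gene library sizes times TMM factors. The fit was tested on simulated data. At the lowest depth, 3 counts are 0.291 CPM, and such floors cover counting error only, since reads carried no molecular identifiers. Shares of cyclins were compared by exact permutation.

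Named were all 10 members, the targeted genes, the 4 lowest adjusted p per direction of the G1/S list with Cdk4, Rb1, Cdkn1a, Cdkn1c and E2f1, the 3 lowest of the replication and factor lists, and the 3 genes most alike to each member called in both knockouts. Members and lists were chosen with earlier results of these data known. Alternatives were DESeq2 1.42.0 (size factors, Wald test), limma-voom (limma 3.58.1), other filters, a replicate block, a fit on the compared groups alone and leaving out libraries.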

Additional observations from a re-analysis of the deposited data

How the results depend on the processing

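Ccnd1, Ccnd3, Ccne1, Cdk6 and Cdkn2a kept their direction and their call against wild type in both knockouts under all 14 alternatives run for each. Of 420 values of single genes under alternatives, 397 kept direction and side of the threshold, 8 lost and 6 gained a call, and 9 changed sign, all 9 between the knockouts, where none was called. Between the knockouts Ccne2 (0.003) was -0.0069 with the replicate block and -0.035 with limma-voom, and Cdkn2a was -0.027 with both knockout libraries numbered 2 left out, an alternative chosen after the data were seen. Leaving out 1 library gave -0.16 to 0.19 for Ccne2, -0.10 to 0.53 for Cdkn2b, -0.25 to 0.038 for Ccnd3 and -0.34 to 0.12 for Cdkn1b. Without 1 library, the Ccnd1 share differed by -3.95 to 0.99 points between the knockouts and by -3.62 to 1.33 points between the libraries labelled PRDM14 knockout and wild type. Genes called between the knockouts numbered 141, and 328 without a filter, 392 with the replicate block, 24 in the fit on the compared groups alone, 602 with DESeq2 and 24 to 597 without 1 library; the cause was not tested. Without 1 library 4800 to 5811 genes were called in the CBFA2T2 knockout against wild type and 3386 to 4970 in the libraries labelled PRDM14 knockout against wild type. The block paired libraries by replicate number, although same-numbered libraries deviated together only weakly against wild type (r of -0.0065 to 0.1 and -0.0082 to 0.07) and at 0.06 to 0.3 between the knockouts, where 6 of 6 libraries were closest to their own number; with it Ccnd2 was called in the libraries labelled PRDM14 knockout (-0.52, adjusted p = 0.0166). The number of libraries, 3 a group, and the 29 to 247 counts of Cdkn2b limit what could be seen.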

Other observations

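Cyclins and cyclin-dependent kinases outside G1 were also read, 35 genes chosen by symbol after the data were seen. In the CBFA2T2 knockout 6 rose, 8 fell and 21 were not called, and in the libraries labelled PRDM14 knockout 4 rose, 7 fell and 24 were not called, against 18.9% and 19.6% of all genes as rises and falls in the first comparison and 14.6% and 15.3% in the second. Their median log2 fold change was -0.11 in each. Ccng1, a cyclin G gene induced by p53, was at 308, 348 and 258 CPM in the CBFA2T2 knockout, 293, 294 and 290.1 CPM in the libraries labelled PRDM14 knockout and 211, 187 and 204 CPM in wild type, a log2 rise of 0.60 ± 0.10 in the CBFA2T2 knockout (edgeR adjusted p = 0.000259) and of 0.55 ± 0.10 in the libraries labelled PRDM14 knockout (adjusted p = 0.000818). Cdk14, a kinase linked to WNT receptor signalling, was at 14.8, 17.0 and 9.78 CPM in the CBFA2T2 knockout, 9.91, 11.2 and 10.5 CPM in the libraries labelled PRDM14 knockout and 5.43, 6.10 and 3.80 CPM in wild type, a rise of 1.46 ± 0.22 in the CBFA2T2 knockout and of 1.05 ± 0.23 in the libraries labelled PRDM14 knockout. Ccng2 and Ccni were the other rises in the libraries labelled PRDM14 knockout, at 0.53 and 0.45. The transcription kinase gene Cdk12 was at 133, 142 and 149.6 CPM in the CBFA2T2 knockout, 149.5, 152 and 153 CPM in the libraries labelled PRDM14 knockout and 226, 225 and 266 CPM in wild type, a fall of 0.76 ± 0.08 in the CBFA2T2 knockout and of 0.66 ± 0.08 in the libraries labelled PRDM14 knockout. Cdk17 fell by 0.73 ± 0.12 in the CBFA2T2 knockout and by 0.66 ± 0.12 in the libraries labelled PRDM14 knockout. Ccno, a cyclin of multiciliated cells, fell by 1.63 ± 0.38 in the CBFA2T2 knockout and by 1.68 ± 0.38 in the libraries labelled PRDM14 knockout, with 12 to 38 counts in the 6 knockout libraries and 55 to 82 counts in wild type.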
